A study of Mus musculus with 30 samples.

Results

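The peaks described here are 500 regions of open chromatin in the mouse ventral hippocampus that were more accessible 45 min after the start of restraint in 2 of the study's 4 batches, and the question asked of them is what the same regions did in the other 2 batches. They were taken from 248600 autosomal peaks with a mean count of at least 20, out of 257149 peaks in all. In batches 1 and 2 only, the members were chosen by a Welch t statistic of 8 libraries at 45 min against 8 at 0 min, computed on log2(CPM + 0.5) less the batch mean (CPM is the count in a peak scaled to its library's total), and the 500 largest values were kept. The 14 libraries of batches 3 and 4, which are 8 at 0 min and 6 at 45 min, did not enter the t, although their counts entered the mean of at least 20 (taking that mean over batches 1 and 2 alone changes 1 of the 500 peaks).

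The assay was ATAC-seq, in which a transposase inserts sequencing adapters into DNA that is not packed into nucleosomes, on nuclei of 1 ventral hippocampus per mouse. The 30 mice, of both sexes, had been either handled or restrained in a tube every day for 10 days (chronic restraint), and all were then housed alone for 24 hours. Each group was sampled either from the home cage (0 min) or 45 min into a new restraint. In batches 3 and 4 this gave, for each history, 4 mice at 0 min and 3 at 45 min. The handled mice that met restraint for the first time and the chronically restrained mice that met it again both count as "45 min", and strain and age are not given in the sources used here.

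Restraint releases corticosterone from the adrenal gland, which binds the glucocorticoid receptor and the mineralocorticoid receptor in hippocampal neurons and glia. The activated glucocorticoid receptor enters the nucleus, binds DNA at palindromic elements made of ACA and TGT arms and raises or lowers transcription of nearby genes such as Fkbp5, Sgk1, Zbtb16 and Klf15. Neuronal activity during stress also induces immediate early genes such as Fos, whose products bind AP-1 elements. A gain of ATAC-seq signal at a region means that the transposase cut there more often, and in bulk tissue more cells of a type, a greater share of open cells and a greater opening in each cell cannot be told apart.

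Of the 500 peaks, 30 overlapped at least 1 RefSeq promoter window (GRCm38.p6, 250 bases before to 50 bases after a gene's start), 45 windows of 37 genes in all. Windows are printed 5′ to 3′ on the gene's strand for genes that return in the results: Fam107a and Allc, the only genes of the 37 whose windows held the extended receptor palindrome (the core ACANNNTGT with GN before it and NC after it), Phyhd1, which held only the core, and Plin4 and Klf15, receptor target genes whose windows held neither. Capitals mark the core palindrome and the single arm TGTTCT, both searched on both strands, and where the 2 overlap their letters form 1 run.
Fam107a, chr14:8309728-8310027, minus strand: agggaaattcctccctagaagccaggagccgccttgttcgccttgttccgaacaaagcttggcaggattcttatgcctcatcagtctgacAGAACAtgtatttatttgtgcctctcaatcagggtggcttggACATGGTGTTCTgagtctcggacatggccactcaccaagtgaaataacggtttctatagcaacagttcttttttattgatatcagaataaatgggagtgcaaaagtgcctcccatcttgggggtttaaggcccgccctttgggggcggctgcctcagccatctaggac
Allc, chr12:28582479-28582778, minus strand: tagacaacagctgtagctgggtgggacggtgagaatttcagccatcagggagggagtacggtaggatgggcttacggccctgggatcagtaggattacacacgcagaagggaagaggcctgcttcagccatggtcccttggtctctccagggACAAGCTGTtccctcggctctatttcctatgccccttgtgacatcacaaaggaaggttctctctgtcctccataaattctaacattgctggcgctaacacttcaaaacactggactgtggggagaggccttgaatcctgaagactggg
Phyhd1, chr2:30265953-30266252, plus strand: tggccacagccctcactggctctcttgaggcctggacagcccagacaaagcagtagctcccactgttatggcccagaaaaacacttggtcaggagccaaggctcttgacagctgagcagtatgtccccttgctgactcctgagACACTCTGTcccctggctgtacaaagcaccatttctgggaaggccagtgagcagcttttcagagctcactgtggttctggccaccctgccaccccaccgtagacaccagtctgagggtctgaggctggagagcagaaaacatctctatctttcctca
Plin4, chr17:56109733-56110032, minus strand: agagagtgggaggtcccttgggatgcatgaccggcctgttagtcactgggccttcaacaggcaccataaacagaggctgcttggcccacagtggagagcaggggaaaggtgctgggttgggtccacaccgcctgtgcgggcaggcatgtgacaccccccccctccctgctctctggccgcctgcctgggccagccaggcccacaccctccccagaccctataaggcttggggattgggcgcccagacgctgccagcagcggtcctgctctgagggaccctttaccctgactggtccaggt
Klf15, chr6:90462326-90462625, plus strand: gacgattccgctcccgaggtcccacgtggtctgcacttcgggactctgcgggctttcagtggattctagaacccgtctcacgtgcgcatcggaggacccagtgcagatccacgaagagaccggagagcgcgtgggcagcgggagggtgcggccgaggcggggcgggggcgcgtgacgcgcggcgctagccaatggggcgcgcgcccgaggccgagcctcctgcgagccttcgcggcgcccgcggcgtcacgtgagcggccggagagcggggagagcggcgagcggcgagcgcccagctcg

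The extended palindrome was held by 2 of the 37 genes (5.41%) and by 86 of 16457 autosomal protein coding genes with a window (0.523%), and the core, extended or not, by 3 of 37 (8.11%) and 7.03% of all. The single arm was held by 8.11% of the 37 genes and 18.45% of all. The AP-1 letters TGANTCA were in 13.51% of the 37 and 8.23% of all, the E-box CACGTG in 10.81% and 9.01%, and the cAMP response element TGACGTCA in 0 of the 37 and 2.63% of all. All genes include those whose window overlaps no peak. Counted by window, the single arm was in 11.11% of the 45 windows and 11.69% of the 13913 windows that overlap a peak. The core was in 8.889% and 4.126%, the extended palindrome in 6.667% and 0.3666%, and the E-box in 8.889% and 9.624%. The AP-1 letters were again in a larger share of the 45 windows. These differences were not tested. These counts describe 300-base windows that overlap 30 of the 500 peaks and rest on single genes, and sequence under the other peaks was not used here. The Klf15 window held the E-box letters at 3 positions, in lower case above.

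Total counts in the 30 libraries ran from 26104576 to 55294838, and in batches 3 and 4 the totals did not separate the times (exact permutation test over 3003 splits, two-sided p = 0.561). Peaks no more than 1 kb from a gene end, meaning either end of the gene, took 38.01% to 42.15% of the counts at 0 min. At 45 min they took 38.17% to 39.95% (exact permutation p = 0.991). The 1% of peaks with the most counts took 20.03% to 21.46% and 20.34% to 21.26% (exact permutation p = 0.377). The highest value of both shares came from 1 library, the handled mouse at 0 min numbered 45 in batch 4, so results are given with and without it. Of the tissue's marker genes, 14 of 15 excitatory neuron, 12 of 14 inhibitory neuron, 9 of 12 astrocyte, 13 of 13 oligodendrocyte and 7 of 7 oligodendrocyte precursor genes had a peak at a gene end. So did 9 of 11 microglia, 8 of 12 endothelial and mural and 4 of 7 choroid plexus genes, so a peak at a gene end hardly separates the lists and is a weak check of the tissue label.

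In batches 3 and 4 most of the 500 peaks were again higher at 45 min, by a smaller amount than in the batches that chose them. The estimated change was positive for 360 peaks (72.0%), against 48.2% of all 257143 peaks tested. Its median was 0.069 on the log2 scale (interquartile range -0.0085 to 0.18, range -0.53 to 0.97), with a median standard error of 0.12 for a single peak. The median over all eligible peaks was -0.0056. In batches 1 and 2, where the choice fixes the direction, the same model gave these peaks a median of 0.32, and 45 of the 500 changed as much or more in batches 3 and 4 as they had there.

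**Figure D1:**
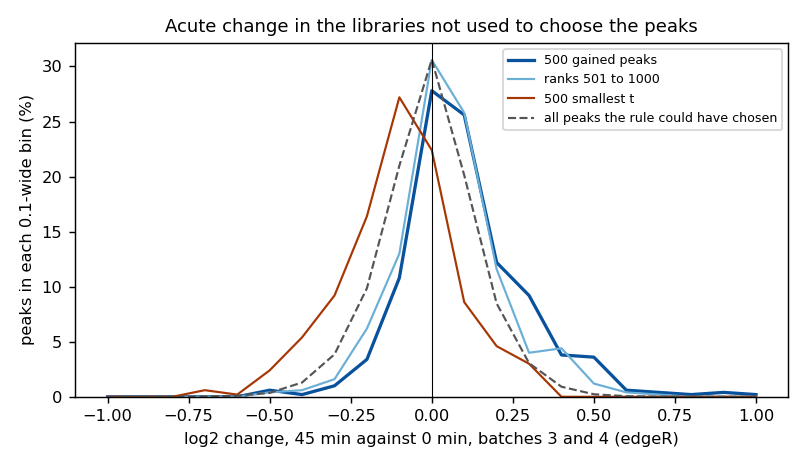
Distribution of the log2 change from 0 to 45 min in the 14 libraries of batches 3 and 4, as the percent of peaks in bins 0.1 wide, for the 500 gained peaks, the next 500 by t, the 500 with the smallest t and all eligible peaks. The gained peaks are shifted to the right of all eligible peaks (medians 0.069 and -0.0056). The 500 with the smallest t are shifted to the left (median -0.097, with library 45 included).

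Position in the list of batches 1 and 2 made a modest difference, which was not tested. Among ranks 1 to 100 there were 80 peaks with a positive change and a median of 0.096, and the 4 following groups of 100 had 70, 66, 72 and 72, with medians of 0.052 to 0.083. The next 500 peaks by t had a positive change in 64.4% and a median of 0.041. The 500 peaks with the smallest t, those most reduced in batches 1 and 2, had a positive change in 26.4% and a median of -0.097. That median was -0.17 in handled mice, the group of library 45, and -0.027 in chronically restrained mice. Averaged over these peaks, library 45 lay 0.28 (log2) above the 0 min mean of its batch. The other libraries at 0 min lay at -0.12 to 0.056 against theirs, and those at 45 min at -0.19 to 0.051, so the times overlapped. Values without library 45 are not given for these peaks. The threshold itself separates neighbours that hardly differ in t. The last peak chosen, 3820 bp from the gene end of Castor2 (a gene of the mTORC1 pathway; chr5:134095168-134095928), had t = 3.911 and a change of 0.29 ± 0.13 (SE) in batches 3 and 4. The first peak left out, near Zcchc24 (chr14:25709867-25711501), had t = 3.910 and a change of 0.036 ± 0.11 (SE).

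No single peak of the 500 passed an adjusted p of 0.05 in batches 3 and 4 (edgeR quasi-likelihood test, Benjamini-Hochberg over all 257143 peaks). The smallest adjusted p among them was 0.0524. Among all peaks tested, 1 was called higher (0.000389%) and 0 lower (0%). That peak (chr4:149889576-149891404) lies between genes, nearest to Spsb1, an adaptor of a ubiquitin ligase, and held rank 2135 in batches 1 and 2. At an unadjusted p under 0.05, 100 of the 500 peaks were higher (20.0%, against 1.6% of all peaks tested) and 4 were lower (0.8%, against 2% of all). DESeq2 with the same model called 4 of the 500 higher, near Sgk1, Fam107a, Usp24 and Ttyh1 (0.00272% of all peaks called), and 89 were higher at an unadjusted p under 0.05 (0.998% of all).

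The number of calls turned on library 45. Without it, 33 of the 500 rose (6.6%, against 0.0657% of all peaks tested) and 0 fell (0.00544%), and these 33 were 19.53% of the 169 peaks called higher in the whole table. The number with a positive change was then 343 and the median change 0.063. Scaling by total count called 6 of the 500 (0.00389% of all), and a covariate for the share of counts taken by the most covered 1% of peaks called 14 (0.00972%). Leaving out each of the other 13 libraries in turn called between 0 and 1 of the 500. The adjusted p of the 33 lay between 4.93e-06 and 0.0398.

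**Figure D2:**
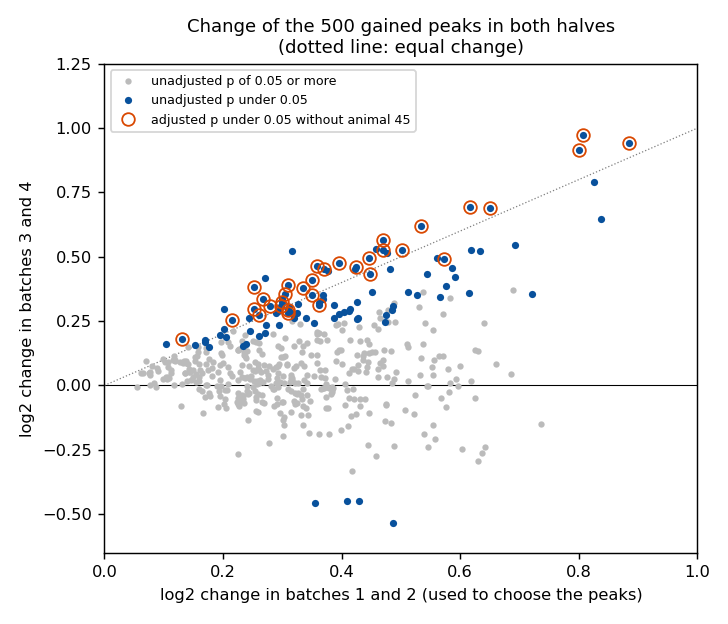
Log2 change from 0 to 45 min of each of the 500 peaks in batches 1 and 2 (horizontal, used to choose them) and in batches 3 and 4 (vertical), with blue points at an unadjusted p under 0.05 in batches 3 and 4 and orange rings at an adjusted p under 0.05 without library 45. Most points lie below the dotted line of equal change, 45 lie on or above it, and the 33 ringed peaks all lie above 0.

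The change could be read in each library as the mean log2 level of the 500 peaks, less the mean of the 0 min libraries of its batch. In batch 3 this was -0.018 to 0.013 in the 4 libraries at 0 min and 0.080 to 0.096 in the 4 at 45 min. In batch 4 it was -0.031 to 0.022 in the 4 libraries at 0 min, and 0.078 and 0.10 in the 2 at 45 min. All 6 libraries at 45 min thus lay above all 8 at 0 min, in both batches and both histories, and library 45 lay at 0.00096 among the others of its time. The same mean over all eligible peaks ran from -0.0097 to 0.019 at 0 min and from -0.0086 to 0.0020 at 45 min, where the times overlapped. On the scale of the choice, 62.8% of the 500 peaks were higher at 45 min in batch 3 and 78.2% in batch 4, and 51.2% in both. The same shares over all eligible peaks were 45.16%, 55.52% and 24.87%.

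**Figure D3:**
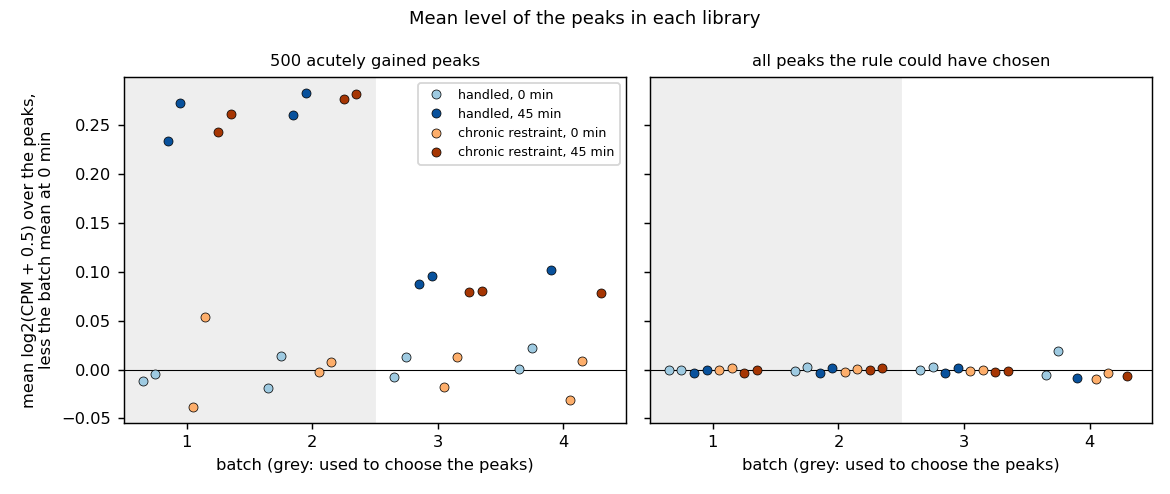
Mean log2(CPM + 0.5) over the 500 gained peaks (left) and over all eligible peaks (right) in each of the 30 libraries, less the mean of the 0 min libraries of the batch. In batches 3 and 4 (white) the 6 libraries at 45 min lie between 0.078 and 0.10 and the 8 at 0 min between -0.031 and 0.022, and batches 1 and 2 (grey) chose the peaks.

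Both histories showed the shift. In handled mice 363 peaks (72.6%, against 47.7% of all tested) were higher at 45 min by any amount, and the median change was 0.088. In chronically restrained mice 342 were (68.4%, against 50% of all), and the median was 0.071. The change was positive in both histories for 260 peaks (52%), against 24.23% of all eligible peaks, and negative in both for 55 (11%), against 26.54%. Neither history alone gave a call in edgeR (0 of 500 in each, 0% of all peaks tested), with 54 and 72 peaks higher at an unadjusted p under 0.05 (1.58% and 1.45% of all), and DESeq2 gave 0 calls in each as well. Without library 45, edgeR called 4 of the 500 higher in handled mice (0.00272% of all) and 3 in chronically restrained mice (0.0035%). The history difference was tested directly as an interaction. In batches 3 and 4 it called 0 of the 500 peaks in edgeR (0% of all) and in DESeq2, with 4 higher and 6 lower in chronically restrained mice at an unadjusted p under 0.05 in edgeR (0.8% and 1.2%, against 1.53% and 1.45% of all). The median standard error of this difference at a single peak, 0.24, exceeded the median acute change. In all 30 libraries it also called 0 in both tools (0% of all), with 0 higher and 5 lower at an unadjusted p under 0.05 (1.7% and 1.33% of all). The t of batches 1 and 2 took both histories and both sexes together within a time, so it favoured peaks with little spread between them in those 16 libraries, and the counts from all 30 libraries are for that reason given as descriptions, here and below.

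Before acute restraint, no difference between histories was called at the 500 peaks of batches 3 and 4. At 0 min, chronic restraint against handling called 0 (0% of all tested) in edgeR and in DESeq2, with 4 higher and 11 lower at an unadjusted p under 0.05 in edgeR (0.8% and 2.2%, against 1.77% and 2.32% of all). Averaged over both times it called 0 (0%) in both tools, with 5 higher and 11 lower (1.0% and 2.2%, against 1.26% and 1.68% of all). In all 30 libraries both contrasts called 0 in both tools, with 7 higher and 9 lower at 0 min (1.9% and 2.7% of all) and 5 higher and 18 lower on average (2.36% and 3.08% of all) at an unadjusted p under 0.05 in edgeR. DESeq2 called 1 peak of the whole table in the averaged contrast of all 30 libraries (0.000389%).

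Females and males of batches 3 and 4 differed at 0 of the 500 peaks in both tools, where edgeR called 0% of autosomal peaks higher and 0.000392% lower in females, and DESeq2 0.0144% and 0.00194% of all peaks, sex chromosomes included. At an unadjusted p under 0.05, 4 were higher and 4 lower in females in edgeR (1.51% and 1.31% of autosomal peaks). A difference of the acute change between the sexes was called at 0 of the 500 in edgeR (0% of all), with 9 higher and 21 lower in females at an unadjusted p under 0.05 (1.8% and 4.2%, against 2.44% and 3.69% of all). The median standard error of this difference at a single peak, 0.25, exceeded the median acute change. At 45 min in these batches, mouse 52 was the only handled female and mouse 66 the only chronically restrained male. A count of 0 is therefore weak evidence that the sexes were alike. In all 30 libraries the sexes differed at 0 of the 500 in both tools (0% and 0.000392% of autosomal peaks in edgeR, 0.0377% and 0.0035% of all peaks in DESeq2), with 4 higher and 6 lower at an unadjusted p under 0.05 (2.77% and 2.33%). Their acute changes differed at 0 (0.000389% of all called higher, 0% lower), with 7 higher and 5 lower (1.8% and 1.93% of all).

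The peaks with the smallest p in batches 3 and 4 lay near genes of several kinds, and the first lay between genes. A 615 bp peak 7396 bp from Ttyh1, a tweety family gene for a membrane protein (chr7:4111520-4112134), had a CPM of 0.843, 1.39 and 2.02 (lowest, median and highest of the 8 libraries at 0 min) and of 2.12, 2.63 and 2.85 in the 6 at 45 min. All 6 libraries at 45 min lay above all 8 at 0 min. Its change was 0.91 ± 0.15 (SE, log2; adjusted p = 0.0524, edgeR), 0.99 in handled and 0.84 in chronically restrained mice, and without library 45 it was 0.84 with an adjusted p of 0.00014.

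A second such peak, 368 bp wide and 115840 bp from Usp24, a deubiquitinase gene (chr4:106199773-106200140), ran from 0.627 through a median of 0.727 to 0.83 CPM at 0 min and from 1.07 through 1.44 to 1.72 at 45 min, with no overlap. The change was 0.97 ± 0.16 (SE; adjusted p = 0.0524, edgeR), the largest of the 500, and without library 45 the adjusted p was 0.000359. Its libraries at 0 min were close together, while the batch 4 handled library at 45 min, at 1.07 CPM, was the lowest of its time.

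The peak at Sgk1, the glucocorticoid-induced kinase that regulates ion channels, lay 49 bp from the gene's end (chr10:21999952-22001215). Its CPM was 4.04, 4.54 and 6.06 at 0 min and 5.94, 7.24 and 7.83 at 45 min. Only 5 of the 6 libraries at 45 min exceeded all 8 at 0 min, since the chronically restrained mouse numbered 56 lay at 5.94, below the 6.06 of mouse 51 of the same history at 0 min. The change was 0.57 ± 0.10 (SE; adjusted p = 0.0632, edgeR), with 0.68 in handled and 0.45 in chronically restrained mice, and an adjusted p of 1.99e-05 without library 45.

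The peak over the Fam107a promoter window printed above was 3550 bp wide (chr14:8308240-8311789). Fam107a encodes an actin-associated protein induced by stress and glucocorticoids. Its CPM was 11.2, 14.4 and 15.9 at 0 min and 18.2, 18.8 and 21.4 at 45 min, with no overlap. The change was 0.46 ± 0.08 (SE; adjusted p = 0.0973, edgeR), 0.46 in handled and 0.47 in chronically restrained mice, and without library 45 the adjusted p was 4.93e-06, the smallest of the 500. A second of the 500 peaks, 164 bp from the gene's end (chr14:8295731-8296106), had a change of 0.52 ± 0.18 (SE), and its times overlapped.

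**Figure D4:**
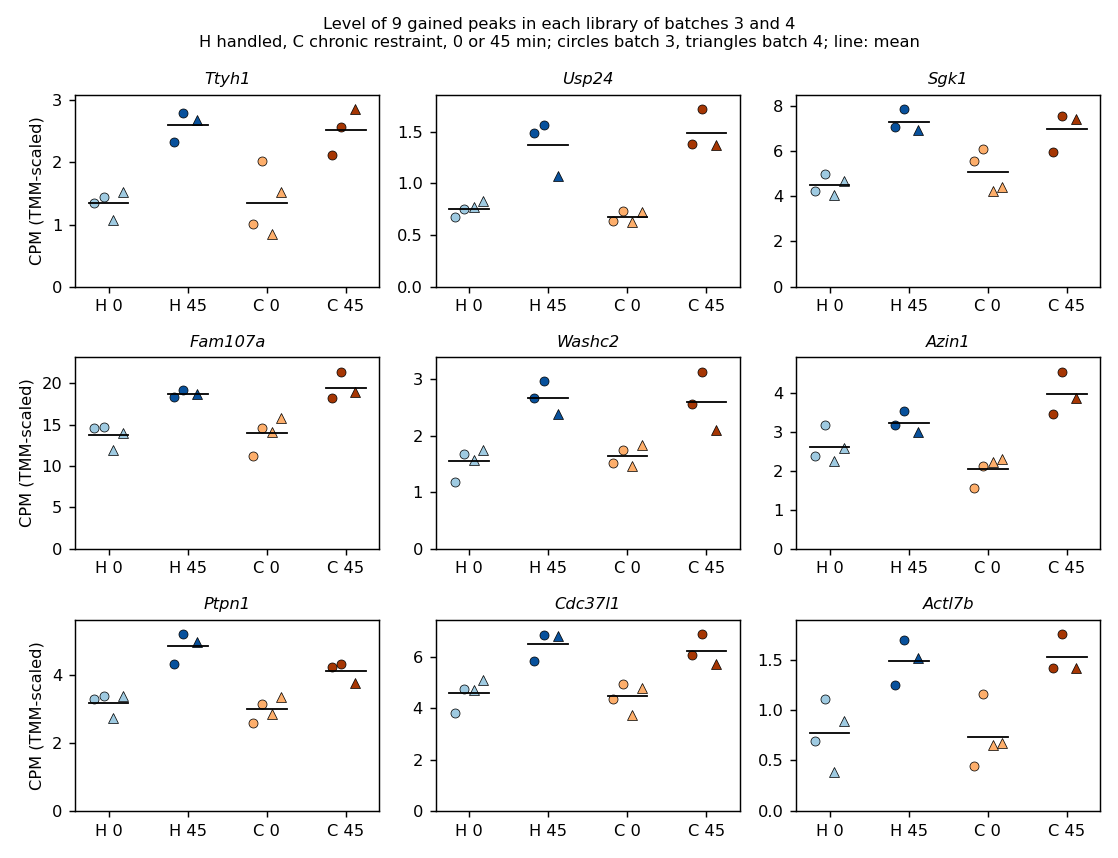
TMM-scaled CPM of the 9 gained peaks with the smallest p in batches 3 and 4, named by nearest gene, in each of the 14 libraries of those batches (handled or chronic restraint, 0 or 45 min), with batch 3 as circles, batch 4 as triangles and the group mean as a line. In 7 of the 9 the libraries at 45 min lie above all those at 0 min, and at Sgk1 and Azin1 they overlap.

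The other 8 peaks named for the smallest p had changes from 0.31 to 0.94. They lay in Washc2 (0.69 ± 0.13 SE, log2), part of the endosomal WASH complex, and 66174 bp from Azin1 (0.62 ± 0.12), a regulator of polyamine synthesis. Others lay 69436 bp from Ptpn1 (0.52 ± 0.10), a tyrosine phosphatase of insulin and leptin signalling, and over both Cdc37l1 and Ak3 (0.49 ± 0.10). Cdc37l1, the gene it is named by, encodes a relative of an Hsp90 co-chaperone. Next were peaks 85308 bp from Actl7b (0.94 ± 0.19), an actin-like gene of the testis, and in Cd101 (0.69 ± 0.14), a surface protein of immune cells. The last 2 were in Zbtb16 (0.38 ± 0.08), described below, and over the ends of Lrrc8a and Phyhd1 (0.31 ± 0.07), Lrrc8a being the obligatory subunit of the volume-regulated anion channel. All 8 passed without library 45, and their adjusted p with it was 0.296 to 0.556 (edgeR). At Azin1 the change was 0.31 ± 0.17 (SE) in handled and 0.93 ± 0.17 in chronically restrained mice of batches 3 and 4. The difference between the histories at Azin1 was 0.62 ± 0.24 (SE) in these batches and was not called (adjusted p = 1.0, edgeR). Over all 30 libraries, 16 of which chose the peak, that difference was 0.15 ± 0.18 (SE).

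The peaks that headed the list in batches 1 and 2 fared unequally. The first, in Adamts9, an extracellular protease gene (chr6:92849959-92850749, t = 10.92), had a CPM of 2.45, 4.24 and 5.44 at 0 min and 4.18, 5.80 and 7.01 at 45 min and a change of 0.53 ± 0.13 (SE; adjusted p = 0.789, edgeR; 0.0106 without library 45). The next 3, near Asb4, Parg and Jade2, had changes of 0.32 ± 0.10, 0.43 ± 0.11 and 0.26 ± 0.10 (SE). At Asb4 2 of the 6 libraries at 45 min exceeded all 8 at 0 min, and at Jade2 0 did. At Parg, which encodes the enzyme that removes poly(ADP-ribose) chains, the 6 libraries at 45 min (3.06 to 4.02 CPM) lay above the 8 at 0 min (2.34 to 3.05 CPM). Next came a peak 308524 bp from Jarid2, a cofactor of the Polycomb repressive complex, with 0.14 ± 0.12 (SE), and a peak 40970 bp from Smad6, an inhibitor of BMP signalling, with -0.19 ± 0.17 (SE), the opposite sign. For both, the times overlapped.

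In 19 of the 500 peaks (3.8%) all 6 libraries at 45 min exceeded all 8 at 0 min, against 111 of all eligible peaks (0.0447%), and in 0 were all 6 lower (0.035% of eligible peaks). Besides Ttyh1, Usp24, Fam107a, Washc2, Ptpn1, Cdc37l1, Actl7b, Cd101, Lrrc8a and Parg they lay nearest to Gm4791, Klf15, Hdgfl2, Fbxo31, Dnajc27, Fkbp5, Thumpd2, Sh2b2 and Rora. Rora encodes a nuclear receptor of the circadian clock, and its peak (chr9:68679910-68680292) had a change of 0.65. The next 500 peaks by t held 2 of this kind. A change of at least 0.2 was seen at 116 of the 500 (23.2%, against 7.5% of eligible peaks), and one of -0.2 or less at 16 (against 9.5%).

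Known target genes of the glucocorticoid receptor were among the genes next to the 500 peaks. Of 30 such genes listed, 7 had a member of the 500 within 10 kb (Errfi1, Fam107a, Fkbp5, Klf15, Plin4, Sgk1 and Zbtb16), with 12 peaks between them. That is 2.4% of the 500, while peaks of the list made up 0.171% of all eligible peaks. Since the list holds genes whose peaks were known from earlier results to respond in these data, this share and the directions below describe the peaks and are not independent evidence. All 12 had a positive change in batches 3 and 4, with a median of 0.33. The list's other 414 eligible peaks were positive in 74.4%, their median being 0.090, and over all 426 peaks of the list 69 were higher and 4 lower at an unadjusted p under 0.05 (1.6% and 2% of all tested).

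Fkbp5 encodes a co-chaperone that restrains the glucocorticoid receptor. It had 3 of the 500 peaks, with changes of 0.24 ± 0.13 (SE; chr17:28431909-28432684), 0.39 ± 0.10 (chr17:28477020-28478462) and 0.30 ± 0.09 (chr17:28487206-28488630) in batches 3 and 4. The first of these had the largest t and ran from 1.46 through 1.68 to 1.97 CPM at 0 min and from 1.60 through 2.12 to 2.47 at 45 min, with 5 of 6 above all at 0 min. Its unadjusted p was 0.066 (edgeR). The second peak had no overlap between times and passed without library 45 (adjusted p = 0.0171, edgeR), but not with it (adjusted p = 0.961). Of all 34 eligible peaks nearest to Fkbp5, 33 were positive and the median was 0.25.

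Zbtb16, a zinc finger transcriptional repressor, had 2 of the 500, both inside the gene. The one with the smaller p (chr9:48722347-48726255) had a CPM of 18.5, 24.0 and 27.6 at 0 min and 26.4, 30.7 and 34.1 at 45 min, with a change of 0.38 ± 0.08 (SE; adjusted p = 0.42, edgeR; 1.99e-05 without library 45). The other (chr9:48761329-48765216) had 0.22 ± 0.08 (SE). The times overlapped at both.

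Klf15, a Krüppel-like transcription factor of metabolism, was the nearest gene of 3 of the 500. The 5826 bp peak inside the gene (chr6:90469115-90474940) was at 17.8, 20.5 and 22.7 CPM at 0 min and 23.2, 23.7 and 25.2 at 45 min. The times did not overlap, and the change was 0.24 ± 0.07 (SE; adjusted p = 1.0, edgeR). The peak over the printed promoter window (chr6:90460957-90465916) had a change of 0.16 ± 0.07 (SE). The third, 14954 bp from the gene (chr6:90506757-90507276), had a change of 0.047 ± 0.12 (SE).

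A 22569 bp peak spanned the ends of Plin4, Plin5 and Hdgfl2 (chr17:56095359-56117927). Plin4 and Plin5 encode perilipins, coat proteins of lipid droplets. It was at 80.2, 100.1 and 108.7 CPM at 0 min and 109.7, 121.5 and 137.5 at 45 min, with no overlap and a change of 0.27 ± 0.06 (SE; adjusted p = 0.702, edgeR; 0.000426 without library 45). Errfi1, an inhibitor of the EGF receptor, had a peak 2101 bp from its end (chr4:150870990-150872728) at 8.91, 11.8 and 16.8 CPM at 0 min and 11.5, 15.2 and 16.4 at 45 min. The times overlapped, with library 45 the highest of all 14 and the chronically restrained mouse numbered 56 at 45 min, at 11.5 CPM, below 5 of the 8 at 0 min. The change was 0.36 ± 0.10 (SE; adjusted p = 1.0), and 0.41 without that library (adjusted p = 0.000405, edgeR).

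The promoters with receptor palindromes did not move alike. The Fam107a peak had a change of 0.46, the Lrrc8a and Phyhd1 peak 0.31, and the Allc peak (chr12:28581632-28582769; Allc encodes a homologue of allantoicase) -0.16 ± 0.12 (SE), after 0.35 in batches 1 and 2 on the scale of the choice.

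The 500 are 0.201% of all eligible peaks, so at that share a list as short as those below would hold at most about 1, and a count of 0 says little. Immediate early genes had 0 within 10 kb, out of 339 eligible peaks of 41 genes, and 44.84% of those 339 had a positive change. Heat shock and chaperone genes had 0 of 204. The circadian list had 1 of 370 (0.27%, Rora), and the list of stress hormone receptors and peptides had 1 of 253 (0.395%), at Nr3c2, the mineralocorticoid receptor (change 0.15 ± 0.14, SE). Oligodendrocyte markers had 3 of 149 (2.01%), at Mobp (0.10 and -0.032) and Myrf (0.20), which is 0.6% of the 500, while that list held 0.0599% of all eligible peaks. Each of the other 7 marker lists (choroid plexus, vessels, microglia, astrocytes, oligodendrocyte precursors and both neuron classes) had 0, out of 42 to 221 eligible peaks. Over all eligible peaks of the 8 marker lists the positive share ran from 47.37% to 60.34%.

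The 500 peaks were spread over 463 nearest genes, of which 431 had 1 peak, 27 had 2 and 5 had 3 (Fkbp5, Hdac4, Klf15, Rps6kc1 and Wipf3). These 5 genes were nearest to unlike numbers of eligible peaks: 34 for Fkbp5, 178 for Hdac4, 15 for Klf15, 92 for Rps6kc1 and 50 for Wipf3. The 3 peaks of Hdac4, a class IIa histone deacetylase, had changes of 0.12 to 0.14 (smallest unadjusted p = 0.18, edgeR). At Rps6kc1 the change was positive at 1 of 3 and at Wipf3 at 2 of 3. Of the 500, 78 (15.6%) lay within 50 kb of another, a share that was not compared with other peaks. By location, 86 (17.2%) were no more than 1 kb from either end of a gene, against 10.41% of eligible peaks. Another 299 (59.8%) lay further inside a gene, against 61.62%, and 115 (23%) lay between genes, against 27.97%. Outside chromosome 18, 28 of 490 (5.71%) held the gene start of a promoter window, against 4.43% of eligible peaks. Gene extents came without strand or exons, so exons, introns and UTRs were not told apart.

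The gained peaks were wider and deeper than the rest. Their median width was 939 bp against 575 bp, and their median mean count 110.5 against 60.5. The count enters the choice through its minimum and the precision of t, so these values are descriptions. By quartiles of all eligible peaks, 46.4% of the 500 were in the widest quartile and 48% in the most covered. A total of 26 (5.2%) were at least 10 kb wide, against 0.612% of eligible peaks. The 3 widest, at 34109, 30288 and 29950 bp, each spanned several genes, among them Cdk5 and Asic3, Gatad2a and Ndufa13, and Lfng and Ttyh3, and had changes of 0.051, 0.047 and 0.060 (SE 0.058 to 0.059).

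The direction in batches 3 and 4 varied with these properties. The change was positive in 82.92% of the 240 peaks of the most covered quartile, against 49.94% of all eligible peaks of that quartile, and in 58.46% of the 65 of the least covered quartile, against 47.71%. It was positive in 80.17% of the 232 peaks of the widest quartile and 60.27% of the 73 of the narrowest, with medians of 0.074 and 0.039. The 2 quartiles between had medians of 0.071 and 0.084. The median standard error was 0.090 in the most covered and 0.19 in the least covered quartile, and 0.089 and 0.19 by width. From the least to the most covered quartile, the median change was 0.025, 0.071, 0.044 and 0.087. Whether the error accounts for the differences in sign was not tested. Peaks at gene ends and between genes were positive in 80.23% and 80.0%, with medians of 0.061 and 0.14, and peaks within genes in 66.56%, with a median of 0.054. Of the 26 peaks of at least 10 kb, 25 were positive, but so were 68.86% of all eligible peaks of that width. Differences between these classes of the 500 were not tested.

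**Figure D5:**
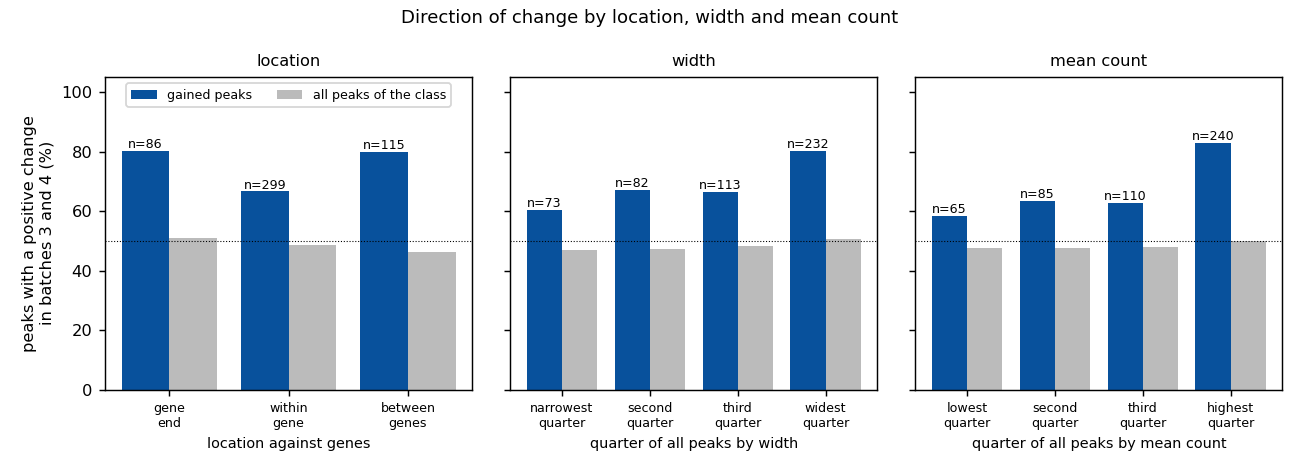
Percent of peaks with a positive change from 0 to 45 min in batches 3 and 4, by location, by quartile of width and by quartile of mean count, for the 500 gained peaks (blue, with their number) and all eligible peaks of the same class (grey); the dotted line marks 50%. The blue bars run from 58.46% to 82.92% and the grey bars stay between 46.31% and 51.08%.

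The 140 peaks with a change of 0 or less included 4 with an unadjusted p under 0.05, each covered by few counts. They lay in Tmprss9, a serine protease gene (-0.45 ± 0.19 SE, log2), 16536 bp from Camsap2, which binds microtubule minus ends (-0.45 ± 0.19), in Rapgef4, a cAMP-activated exchange factor (-0.53 ± 0.23), and 22105 bp from Padi2, a peptidylarginine deiminase (-0.46 ± 0.21). All had an adjusted p of 1.0 (edgeR), mean counts of 23.03 to 46.73 and overlapping times. Low counts were not confined to peaks that fell, since the Usp24 and Actl7b peaks, which rose, had mean counts of 41.57 and 43.83. At Rapgef4 the CPM was 0.378, 0.70 and 0.878 at 0 min and 0.149, 0.465 and 0.525 at 45 min. Another, in Crim1, which encodes a membrane protein that binds BMPs, had rank 10 in batches 1 and 2 and a change of -0.33 ± 0.19 (SE). Of the 3 peaks farthest from a gene end, those near Jarid2 and in Magi2, a synaptic scaffold, had 0.14 and 0.28, and the one in Tenm2, a teneurin adhesion molecule, had -0.10.

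Across the 500 peaks, the change in batches 1 and 2 and that in batches 3 and 4 were weakly related (Pearson's r = 0.29, Spearman's rho = 0.17, over 500 peaks that share their libraries), and over all 248600 eligible peaks r was 0.13 and rho 0.12. Handled and chronically restrained mice of batches 3 and 4, which share no library, gave r = 0.42 and rho = 0.33 over the 500.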

How the data were processed

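Bulk ATAC-seq was read from 1 deposited table of whole-number counts per peak for 30 mice, with group, sex, batch and animal number taken from the labels. Per the submitters' processing notes, Trimmomatic, Bowtie2, Picard, Genrich 0.6.1 and GRCm38 were used. How the peaks were merged and whether reads, fragments or insertions were counted is not given in the sources used here. Another 2 columns of the table match no sample's label and were left out. Coordinates are given as in the file.

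The peaks were chosen with Python 3.11.15 (numpy 2.4.6, pandas 2.3.3) as the report describes. Counts of batches 3 and 4 were fitted in edgeR 4.0.16 (R 4.3.3) with TMM scaling, filterByExpr, group, sex and batch as terms and a robust quasi-likelihood fit, and the contrast of 45 against 0 min was averaged over both histories. Contrasts of history and sex used all 30 libraries and, added after seeing the data for all but the history difference in edgeR, batches 3 and 4 alone. P-values were adjusted by Benjamini-Hochberg over all 257143 tested peaks, and a peak was called under 0.05. DESeq2 1.42.0, other scalings, covariates, choices of peaks and each library left out were alternatives. The code was tested on simulated data. Levels are TMM-scaled CPM. Each mouse is 1 replicate.

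Each peak took the nearest of 21887 RefSeq protein coding genes. Named peaks are the 12 with the smallest p among positive changes in batches 3 and 4 and the 6 with the largest t (each at most 1 per gene), the one with the largest t per receptor target gene, the 5 with the smallest p among negative changes, ranks 500 and 501, the 3 widest and the 3 farthest from a gene end. Other named peaks were chosen after their values were seen. The peaks, gene lists and tests were chosen with earlier results of these data known.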

Additional observations from a re-analysis of the deposited data

Results flagged for a closer look

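In 5 of 72 groups of 4 libraries at the named peaks of batches 3 and 4, 1 library stood apart from the other 3, and chance flags about 1 in 20 such groups. At the Ptpn1 peak the handled mouse numbered 20 at 0 min was at 2.721 CPM, with the others of its group at 3.29 to 3.37. At the Adamts9 peak the chronically restrained mouse numbered 63 at 0 min was at 2.451 CPM, with the others at 4.24 to 4.55. At the Zbtb16 peak chr9:48761329-48765216 the chronically restrained mouse numbered 46 at 0 min was at 14.63 CPM, with the others at 12.2 to 12.4. At the Errfi1 peak the handled mouse numbered 45 at 0 min was at 16.79 CPM, with the others at 11.1 to 11.9. At the Padi2 peak the same mouse was at 2.001 CPM, with the others at 1.05 to 1.10.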

How the results depend on the processing

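The number of the 500 peaks called higher in batches 3 and 4 was 0, and it became 6 with total count scaling, 14 with a covariate for how much of a library its most covered 1% of peaks took, 2 without sex, 3 in batch 3 alone, 4 in DESeq2 and 1 when the peaks were chosen by edgeR's p (which shared 209 peaks with the 500). Leaving out 1 library gave 0 to 33, the highest without library 45. The number with a positive change stayed between 337 and 365 under the other scalings, filters, covariates, batches and DESeq2, and leaving out 1 library gave 341 to 370. It was 184 for the 250 largest t and 682 for the 1000 largest, where the number of peaks itself differs. The median change was 0.099 in batch 4 alone and 0.14 when peaks were chosen by edgeR's p, and leaving out 1 library gave 0.057 to 0.085. In handled mice the median became 0.11 with total count scaling and 0.11 in batch 4 alone, 1 peak was called with that covariate, and leaving out 1 library gave medians of 0.077 to 0.11, 338 to 364 positive and 0 to 4 calls, 4 without library 45. In batch 4, mouse 71 was the only handled and mouse 23 the only chronically restrained mouse at 45 min. In chronically restrained mice the median became 0.089 in batch 3 alone, and leaving out 1 library gave medians of 0.066 to 0.089, 319 to 347 positive and 0 to 3 calls, 3 without library 45. The contrasts of history and sex called 0 of the 500 under each alternative run, batches 3 and 4 alone among them. At Zcchc24, just outside the 500, the change of 0.036 was -0.13 in batch 3 alone and ran from -0.12 to 0.11 with 1 library left out. The other named peaks kept their sign. Causes were not tested. No paired analysis was possible because each animal number occurs once. With 14 libraries the standard error of a single peak (median 0.12) exceeds the median change.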
